A study of Rattus norvegicus with 2 samples.

Results

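The Egr transcription factors and their Nab corepressors were described in RBL-2H3 cells, which derive from a basophilic leukemia of the rat and stand in for mast cells and basophils in culture. The gene set was fixed by name as Egr1, Egr2, Egr3, Nab1 and Nab2, and all 5 were found among the 14913 gene names of the count table. The set was selected on family membership with the read counts of these same libraries already known, so its counts and folds are given as a description and carry no test. The IgE group was 1 library of RBL-2H3 cells of WT genotype incubated with IgE, and the untreated group was 1 library of the same line and genotype with no treatment. The labels give no IgE dose, no duration and no antigen. RNA was poly(A)-selected and sequenced, and the series asked which events follow IgE acting on these cells. With 1 library in each group, no difference below has a replicate check.

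Egr proteins are zinc-finger transcription factors that bind GC-rich DNA. Their genes belong to the immediate early class, which is switched on within minutes of a stimulus through serum response factor, Elk-type ETS factors and CREB, without new protein synthesis. Nab1 and Nab2 have no DNA-binding domain of their own. They dock on Egr proteins and repress their targets, in part through the NuRD chromatin complex, and Nab2 is itself a described Egr target, which closes a feedback loop. In mast cells Egr1 is known to be induced after cross-linking of the IgE receptor.

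The DNA before the gene starts is shown because the 2 Egr genes below share an arrangement of motifs that the Nab genes did not hold. RefSeq promoter entries (build GRCr8) matched 4 of the 5 genes by symbol, Egr1, Egr2, Nab1 and Nab2. The 250 bases before each annotated start were searched on both strands for the CArG box (the serum response factor element), the CRE core TGACG (bound by CREB-type factors) and the Egr site GCGNGGGCG. No match to one motif overlapped a match to another in these 4 windows. Capitals mark CArG boxes and CRE cores in Egr1 and Egr2, and Egr sites in Nab1. The windows are chr18:26736828-26737077 on the plus strand for Egr1, chr20:21054442-21054691 on the minus strand for Egr2 and chr9:56545392-56545641 on the plus strand for Nab1, each written 5′ to 3′ along the gene.
Egr1: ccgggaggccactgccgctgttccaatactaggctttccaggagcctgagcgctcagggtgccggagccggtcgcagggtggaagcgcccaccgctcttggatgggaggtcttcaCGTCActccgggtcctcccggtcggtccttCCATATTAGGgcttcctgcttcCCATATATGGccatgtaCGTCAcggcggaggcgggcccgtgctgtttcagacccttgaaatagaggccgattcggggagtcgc
Egr2: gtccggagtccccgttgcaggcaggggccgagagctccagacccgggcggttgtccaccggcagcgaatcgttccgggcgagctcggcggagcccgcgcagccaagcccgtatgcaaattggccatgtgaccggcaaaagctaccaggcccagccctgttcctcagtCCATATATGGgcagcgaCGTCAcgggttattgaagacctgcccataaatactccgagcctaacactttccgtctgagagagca
Nab1: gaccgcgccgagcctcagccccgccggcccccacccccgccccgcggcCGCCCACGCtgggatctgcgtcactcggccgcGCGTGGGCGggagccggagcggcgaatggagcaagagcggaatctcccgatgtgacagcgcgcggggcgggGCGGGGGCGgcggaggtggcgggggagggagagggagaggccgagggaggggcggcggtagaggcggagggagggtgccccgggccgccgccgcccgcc

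The Egr1 window held 2 CArG boxes, CCATATTAGG at 105 to 96 bases and CCATATATGG at 83 to 74 bases before the start. It held 2 CRE cores, both on the opposite strand, at 135 to 131 and 66 to 62 bases before the start. The Egr2 window held 1 CArG box and 1 CRE core, and both stood at the same distances, 83 to 74 and 66 to 62 bases, as the inner pair of Egr1. Of 33469 RefSeq promoter windows of the same length, 501 held a CArG box, 6097 (18.2%) a CRE core and 77 both.

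In 3 of those 33469 windows a CRE core began 7 bases after a CArG box. They belonged to Egr1, Egr2 and Dusp5, which encodes a nuclear ERK phosphatase. The spacing was chosen after the Egr1 and Egr2 windows were read, so Dusp5 was the only gene it added. The stretches below show the CArG box and the CRE core (as read on the gene's strand) in capitals with the 7 bases between them, at chr18:26736995-26737016 (plus strand), chr20:21054503-21054524 (minus strand) and chr1:262543702-262543723 (plus strand).
Egr1: CCATATATGGccatgtaCGTCA
Egr2: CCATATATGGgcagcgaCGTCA
Dusp5: CCTTATATGGgcactcaCGTCA

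The Nab windows differed from these. Nab1 held 3 Egr sites, GCGTGGGCG at 202 to 194 bases on the opposite strand and at 170 to 162 bases, and GCGGGGGCG at 99 to 91 bases before the start, with 1 CRE core and no CArG box. An Egr site stood in 4.29% of all windows, and the Nab1 window was 81.2% G and C, and the motif itself is made of G and C but for its free base. In the Nab2 window these letters were not found for any of the 3 motifs. The search took exact matches within 250 bases, so a near match or a site farther away would be missed. A match is a stretch of letters and shows neither binding nor use of the site in these cells.

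**Figure D1:**
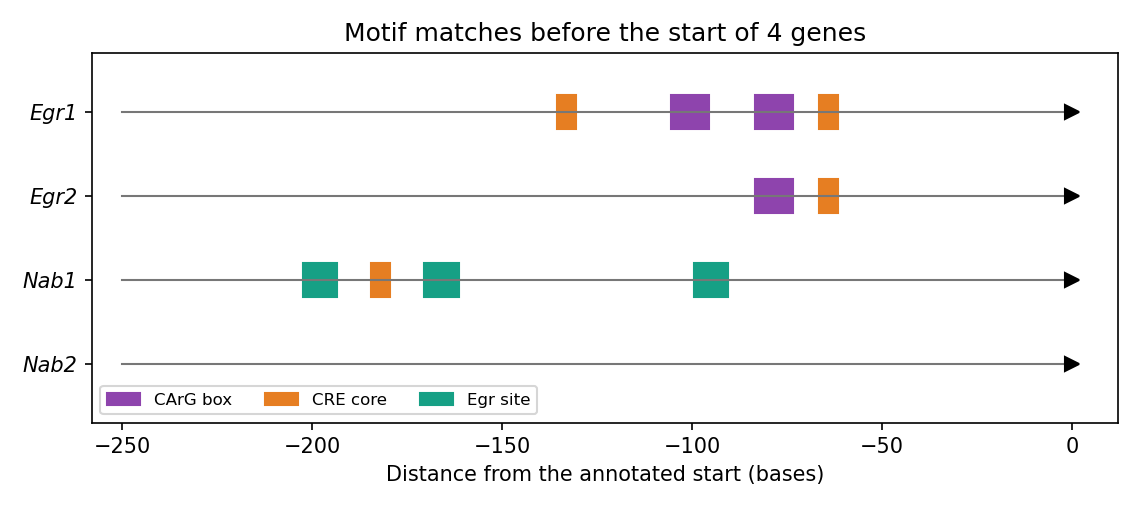
Motif matches in the 250 bases before the annotated start of Egr1, Egr2, Nab1 and Nab2 (x axis, distance from the start in bases; the arrowhead marks the start; coloured boxes are CArG boxes, CRE cores and Egr sites). The inner CArG box and CRE core of Egr1 stand at the same distances as those of Egr2, 83 to 74 and 66 to 62 bases before the start.

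The libraries held 26268330 counted reads with IgE and 20917968 untreated. CPM below are reads divided by the scaled size of their library, so that both libraries are on one scale, and 1 read was worth 0.0382 CPM in the IgE library and 0.0477 CPM in the untreated library. All 10 mast cell and basophil markers were measured, from Gata2 (2303 CPM with IgE, 2479 CPM untreated) to Cma1 (7.22 CPM with IgE, 5.96 CPM untreated), and summed to 8616 CPM with IgE and 8322 CPM untreated. Markers of other cells were few. Of the macrophage markers, 3 of 6 summed to 3.21 CPM with IgE and 5.48 CPM untreated. Of the lymphocyte markers, 2 of 7 summed to 12.1 CPM with IgE and 10.6 CPM untreated. Most of that sum was Cd79a (11.3 CPM with IgE, 10.2 CPM untreated), which lay above the mast cell marker Cma1. Of 6 fibroblast and epithelial markers, Krt8 had 1 read with IgE and 5 untreated. All 3 measured macrophage markers had log2 folds below 0, of which the scavenger receptor gene Msr1 was over 2-fold lower with IgE (7 reads with IgE and 26 untreated, log2 -2.13, counting interval -3.66 to -0.97). The counting intervals of Cd68 (-1.08 to 0.23) and Csf1r (-1.30 to 0.02) included 0. The remaining markers of those lists, and all 5 of Schwann cells and neurons, were not analysed here, and the part of any other cell type in the results was not tested.

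Egr1, the zinc-finger factor that gives the family its name, had 796 reads with IgE and 274 reads untreated. Its level was 30.4 CPM with IgE (95% counting interval 28.3 to 32.6) and 13.1 CPM untreated (11.6 to 14.7), and these intervals did not overlap. The fold was 2.33, with a counting interval of 2.03 to 2.68 (log2 1.22, 1.02 to 1.42). Intervals here are exact and take in counting error alone, because PCR copies of a molecule were not told apart and no culture was repeated. In bulk RNA, a higher level in each cell and a larger share of cells with the transcript cannot be told apart.

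Egr3, a family member linked in mouse to muscle spindle development and lymphocyte responses, had 33 reads with IgE and 1 read untreated. That is 1.26 CPM with IgE (0.868 to 1.77) and 0.0477 CPM untreated (0.00121 to 0.266). The untreated value lies under the detection floor of 3 reads, 0.143 CPM in that library, and the size of the difference is poorly fixed. The read ratio scaled for library size was 26.4, with a counting interval of 4.43 to 1076 (2.15 to 10.1 in log2). With a prior of 0.5 counts added to each library the log2 fold was 4.22, and with a prior of 5 counts it was 2.50.

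Egr2, known from mouse as a factor for hindbrain patterning and Schwann cell myelination, had 38 reads with IgE and 17 reads untreated. Its level was 1.45 CPM with IgE (1.03 to 1.99) and 0.810 CPM untreated (0.472 to 1.30), and these intervals overlapped. The log2 fold was 0.82, and its counting interval of -0.02 to 1.76 included both no difference and a difference of over 2-fold. Egr2 was thus higher in the IgE library by point value, at a depth that does not separate it from no difference.

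The corepressors were close to level. Nab1 had 1392 reads with IgE and 1035 reads untreated, or 53.2 CPM with IgE (50.4 to 56.0) and 49.3 CPM untreated (46.4 to 52.4). Its log2 fold was 0.11 (-0.0090 to 0.23), so a difference above 1.17-fold lies outside the counting interval. Nab2, the corepressor described as an Egr target, had 156 reads with IgE and 151 reads untreated, or 5.96 CPM with IgE (5.06 to 6.97) and 7.20 CPM untreated (6.09 to 8.44). Its log2 fold was -0.27 (-0.60 to 0.06), a value below 0 whose upper bound is 1.04-fold, while the lower bound is 0.658-fold.

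**Figure D2:**
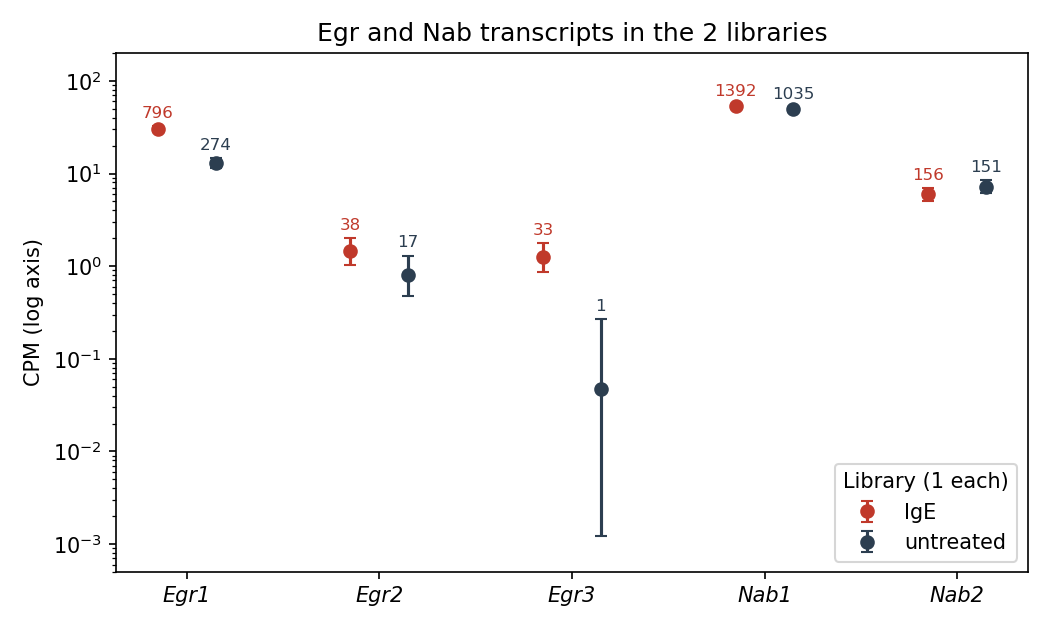
CPM of Egr1, Egr2, Egr3, Nab1 and Nab2 (log axis) in the IgE library (red, left of each pair) and the untreated library (dark, right), with exact 95% counting intervals; the numbers printed over the points are reads. The intervals of the 2 libraries are apart for Egr1 and Egr3 and overlap for Egr2, Nab1 and Nab2.

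Of the 5 genes, all of which passed the minimum of 20 reads over both libraries, 2 were at least 2-fold higher with IgE and none was that much lower. Over the 12102 genes that passed this minimum, 161 (1.33%) reached 2-fold upward and 157 (1.30%) reached 2-fold downward. The genes were chosen with this contrast known, so nothing is read from the excess. Egr3 passed the minimum through its reads in the IgE library. With a minimum of 100 reads Egr1 was the 1 gene of the set at least 2-fold higher, among 21 of 10367 genes (0.203%).

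The place of each gene among genes of like read number is given as a description, since the genes were chosen with this contrast known. Among the other 3361 genes with 535 to 2140 reads, 5% of log2 folds lay under -0.29 and 5% over 0.34, and 2 were as high as Egr1. These were Ccl2, the monocyte chemoattractant (772 reads with IgE, 129 untreated), and the unnamed LOC100362453 (1136 with IgE, 317 untreated). Among the other 1376 genes with 20 to 68 reads, 5% of log2 folds lay under -1.44 and 5% over 1.42. Egr3, at 4.22, is in this band only through its reads in the IgE library, so nothing is read from its place there.

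Egr2 sat inside its band. Of 1468 other genes with 27.5 to 110 reads, 144 (9.81%) had a log2 fold as high as Egr2. Nab1 lay inside its band too, with 980 of 4007 other genes of 1213.5 to 4854 reads as high. Nab2 was toward the lower side of its band, where 262 of 1923 other genes with 153.5 to 614 reads had a log2 fold as low and the 5% to 95% range was -0.43 to 0.50.

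**Figure D3:**
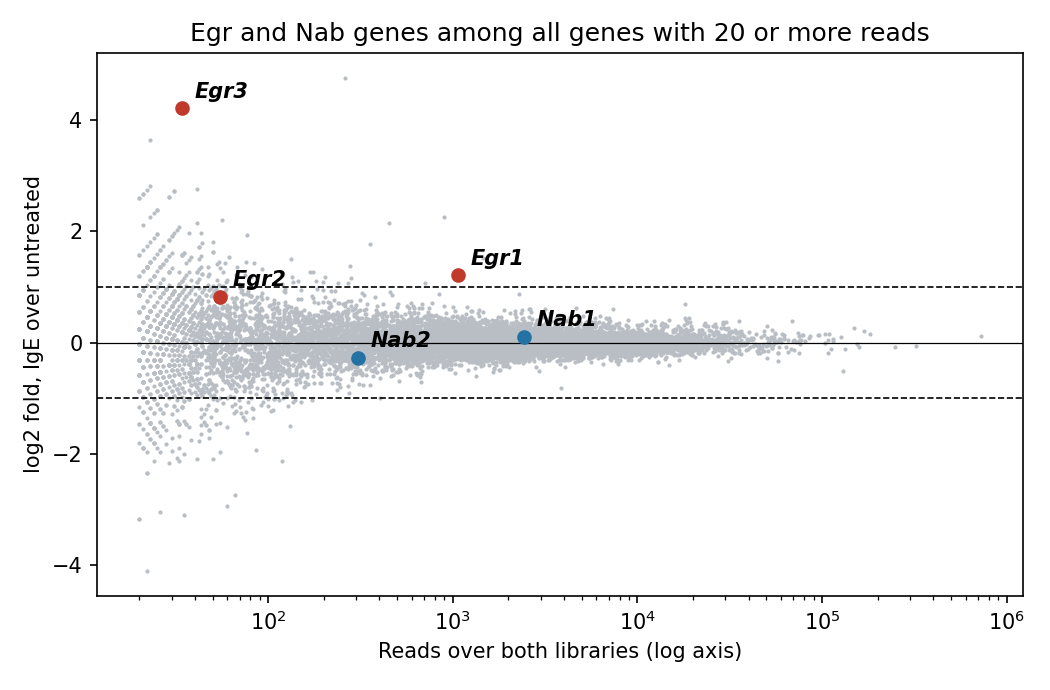
Log2 fold of IgE over untreated (y axis) against reads over both libraries (x axis, log scale) for the 12102 genes with 20 or more reads (grey), with the Egr genes in red and the Nab genes in blue; dashed lines mark 2-fold. Egr1 lies above the grey band at 1070 reads, while Egr2, Nab1 and Nab2 lie within it. Egr3, at 34 reads, passed the minimum only through its reads in the IgE library, so nothing is read from its place.

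Ratios between 2 of the genes within a library need no scaling of one library to the other. There were 5.10 reads of Egr1 per read of Nab2 with IgE and 1.81 untreated, a ratio of ratios of 2.81 (counting interval 2.14 to 3.69). Against Nab1 the values were 0.572 with IgE and 0.265 untreated, a ratio of 2.16 (1.84 to 2.54). The balance of activator to corepressor reads was thus higher with IgE for Egr1 against either Nab gene. Reads are not corrected for transcript length, so these ratios are comparable between the libraries and not between the genes.

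Egr2 per Nab2 stood at 0.244 with IgE and 0.113 untreated, a ratio of 2.16 (1.13 to 4.27), and Egr2 per Nab1 at 0.0273 with IgE and 0.0164 untreated, a ratio of 1.66 whose interval of 0.910 to 3.16 includes 1. Egr3 per Nab2 was 0.212 with IgE and 0.00662 untreated, a ratio of 31.9 (5.18 to 1308) that again rests on 1 untreated read. Within the family, Egr1 per Egr2 was 20.9 with IgE and 16.1 untreated, a ratio of 1.30 with an interval of 0.676 to 2.40, so the folds of Egr1 and Egr2 are not separated by these reads. Egr1 per Egr3 was 24.1 with IgE and 274.0 untreated, a ratio of 0.0880 (0.00216 to 0.532) that rests on the same single untreated read of Egr3. Nab1 per Nab2 was 8.92 with IgE and 6.85 untreated, a ratio of 1.30 (1.02 to 1.66). No adjustment was made for looking at 10 pairs.

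The choice of scaling moved these folds little. With library totals in place of TMM the log2 folds were 1.21 for Egr1, 0.82 for Egr2, 4.21 for Egr3, 0.10 for Nab1 and -0.28 for Nab2. With DESeq2 size factors they were 1.22 for Egr1, 0.82 for Egr2, 4.22 for Egr3, 0.11 for Nab1 and -0.27 for Nab2. The prior of 5 counts changed the pair with few reads, to 0.70 for Egr2 and 2.50 for Egr3, and left Egr1 at 1.21. The authors' deposited table gives log2 folds of 1.21 for Egr1, 0.83 for Egr2, 4.57 for Egr3, 0.10 for Nab1 and -0.28 for Nab2. The authors' deposited table of their selection lists 211 of the 14913 names (1.41%) as up, Egr1 and Egr3 among them, and does not list Egr2, Nab1 or Nab2.

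**Figure D4:**
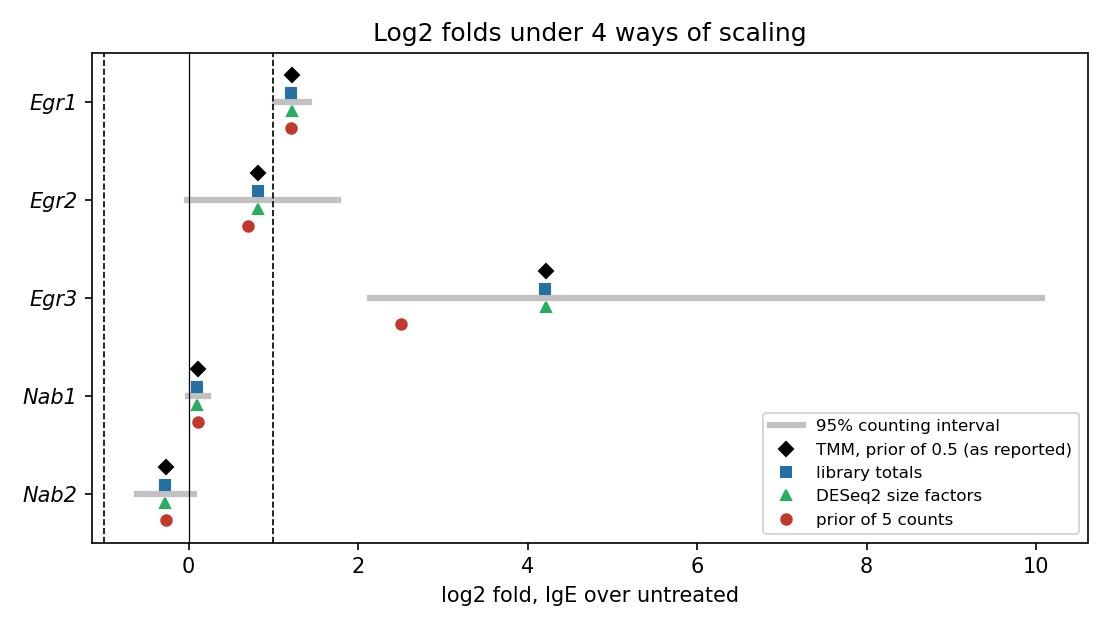
Log2 fold of IgE over untreated (x axis) for each gene under TMM, library totals, DESeq2 size factors and a prior of 5 counts (symbols), with the exact 95% counting interval of the read ratio as a grey bar; dashed lines mark 2-fold. The symbols coincide for Egr1, Nab1 and Nab2, and for Egr3 the prior of 5 counts gives 2.50 in place of 4.22.

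Among genes with a symbol, those nearest in level to each member were sought by Euclidean distance over the 2 log2 CPM values, which are all these libraries offer. Genes without a symbol were left out of this search and may lie nearer. Egr1 had no close neighbour with a symbol. The nearest were Mrpl35, Sugt1 and Smad7, at distances of 0.41, 0.44 and 0.45, with log2 folds of 0.63, 0.66 and 0.88. For Egr3 they were Gbp1, Gpr82 and Olr1, at 1.04, 1.14 and 1.27, with 20, 18 and 28 reads with IgE and 2, 2 and 3 untreated. The search took only genes that passed the minimum of 20 reads. A gene with so few untreated reads passes it only through the IgE library, so nothing is read from the direction of these 3 genes. Egr2 lay within 0.09 of Casp4, Coch and Eps8l1, Nab1 within 0.022 of Hdac3, Rfesd and Strada, and Nab2 within 0.07 of Acad11, Exoc3l1 and Aifm2. Distances are on the log2 scale and rest on 2 libraries.

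Lists of related genes are given with their counts and medians. With 1.33% of all genes 2-fold or more above the untreated library and 1.30% as far below it, lists of this size would hold few or no such genes, and a count of 0 is not a result about a list. Of 10 measured genes for serum response factor, its Elk and myocardin-related partners, CREB-type factors and their acetyltransferases, 0 passed 2-fold in either direction. The list median log2 fold was -0.14, against 0.0049 over all 12102 genes, and 3 members were above 0 and 7 below. Creb1 (0.11) and the ETS factor Elk4 (0.10) were highest, and Elk3 (-0.33) and Srf itself (-0.22) lowest. Srf stood at 52.9 CPM with IgE and 61.6 CPM untreated.

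The kinases upstream of these factors had a median log2 fold of -0.0078 over 8 measured ERK pathway genes, of which 0 were 2-fold apart (all genes 1.33% higher and 1.30% lower). Rps6ka3 (0.07) was highest and Map2k2 (-0.13) and Braf (-0.09) lowest. Mapk3, which encodes an ERK, was not analysed here. Transcript levels say nothing of kinase activity, which was not measured.

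For the NuRD complex, through which Nab proteins repress, all 13 genes were measured, with a median log2 fold of -0.06 and 8 members below 0. Of the 13, 0 were 2-fold apart, against 1.33% of all genes higher and 1.30% lower. Mbd2, a methyl-CpG-binding subunit, was highest (0.26) and Rbbp4 next (0.16), and the GATA-domain subunits Gatad2a and Gatad2b were lowest (-0.23 each). Chd4, the remodelling ATPase that Nab2 contacts, stood at 674.0 CPM with IgE and 767.5 CPM untreated (log2 -0.19).

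Among other zinc-finger factors that read GC-rich promoters, the 9 measured Sp and Klf genes had a median log2 fold of 0.08, with 7 above 0. Of the 9, 0 were 2-fold apart, against the same 1.33% and 1.30% of all genes. Klf10, which is induced by TGF-beta, was highest (0.38, counting interval 0.23 to 0.53), at 36.7 CPM with IgE and 28.3 CPM untreated. Klf3 was next (0.21), and Klf13 (-0.14) and Sp4 (-0.10) were lowest. Klf9 was under the minimum, with 0 reads with IgE and 5 untreated, and Wt1, Klf2, Klf4 and Klf5 were not analysed here.

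Genes described as Egr targets in human or mouse cells were split in both directions. Of 20 measured, 1, Ccl2, was at least 2-fold higher with IgE and 0 were that much lower, against 1.33% and 1.30% of all genes. In sign 9 were above 0 and 11 below, and the median was -0.03. Ccl2 had a log2 fold of 2.26 (29.5 CPM with IgE, 6.15 CPM untreated) and the cytokine gene Tnf was next at 0.92 (50 reads with IgE, 21 untreated). The lowest were Socs3, a feedback inhibitor of cytokine signalling (-0.91, 109 reads with IgE and 164 untreated), and Fgf2, a growth factor (-0.87, 10 reads with IgE and 15 untreated). Values of several of these genes were known when the list was drawn up, and Pdgfa, Pdgfb, F3, Id3, Arc and Ngfr were not analysed here.

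**Figure D5:**
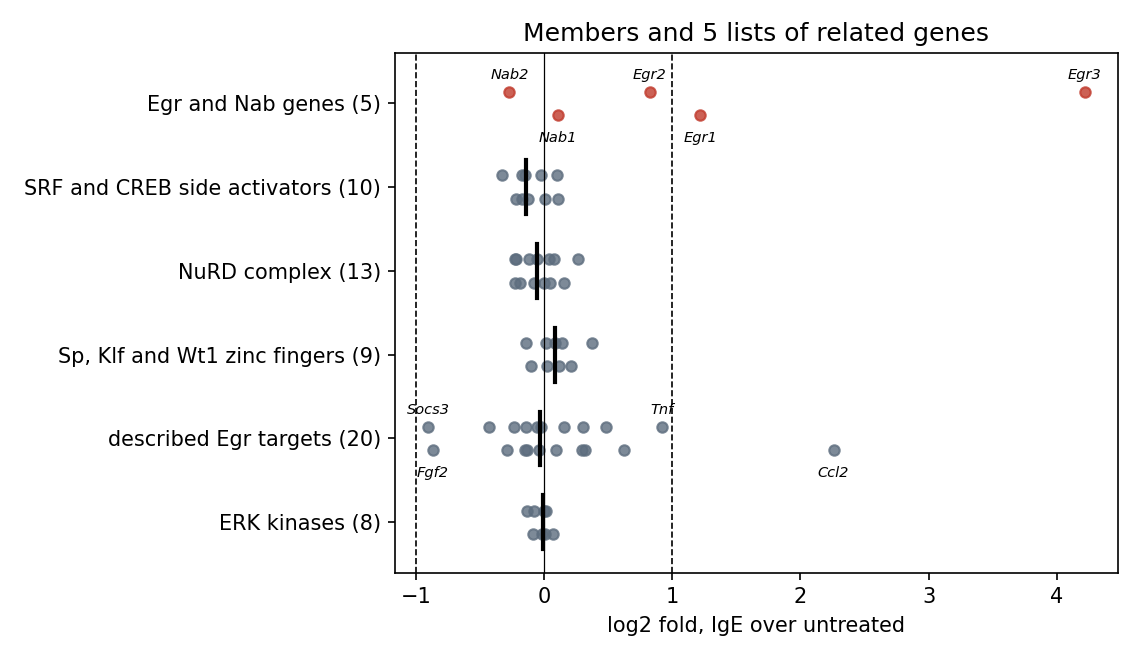
Log2 fold of IgE over untreated (x axis) of the Egr and Nab genes (red) and of 5 lists of related genes (grey points, 1 per gene with 20 or more reads; the number of genes is in parentheses; black bars are list medians; dashed lines mark 2-fold). Of the listed genes outside the Egr family only Ccl2 passes the 2-fold line.

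The upward counts of genes that hold each motif, Egr1 included, are given beside the share of all measured genes with a window. Of 8560 measured genes with a RefSeq promoter window, 0.771% were at least 2-fold higher with IgE. Among the 112 of these with a CArG box, 1 (0.893%) was at least 2-fold higher, Egr1 itself, a gene chosen with this contrast known. In the same 112, 1 was at least 2-fold lower, Clgn (-1.35), and the median log2 fold was 0.00051. Among the 2617 with a CRE core, 16 (0.611%) reached 2-fold upward and 12 reached 2-fold downward, with a median of 0.0095. Among the 745 with an Egr site, found here in the Nab1 window, 4 (0.537%) reached 2-fold upward and 5 reached 2-fold downward, with a median of -0.0041. The downward share over the 8560 genes is not given here, so nothing is read from the downward counts. Dusp5, with the same CArG and CRE spacing as the Egr pair, had 168 reads with IgE and 97 untreated (6.42 CPM with IgE, 4.62 CPM untreated), a log2 fold of 0.47 (0.10 to 0.85).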

How the data were processed

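RNA-seq was analysed from 1 IgE-treated and 1 untreated library. The deposited table held, per the file headers, each gene's raw counts in both libraries beside the p-value, adjusted p and log2 fold change of the authors' comparison. A second deposited table was a selection from it. Tools in the submitters' processing notes are HISAT2 2.1.0, fastp 0.23.0 and DESeq2 1.18.1, and the build is rn6. Which tool counted the reads, and with which strand setting, is not given in the sources used. Identical repeated rows were kept once (14913 of 16990). Log2 CPM were computed with edgeR 4.0.16 in R 4.3.3 (TMM, prior of 0.5 counts), and genes with a sum of 20 or more reads were kept. Differences were described by a 2-fold rule, as 1 library per group allows no test. Counting intervals are exact Clopper-Pearson (read ratios), exact Poisson (CPM) or exact conditional (ratios of ratios) 95% intervals from scipy 1.17.1. The calculation was run on simulated Poisson counts with known folds set in 200 genes. That simulation held no variation between cultures, so it checks the arithmetic alone. Alternatives were scaling by library totals or by DESeq2 1.42.0 size factors, a prior of 5 counts, a minimum of 0 or 100 reads, keeping repeated rows, and a 1.5-fold rule. The genes and lists were chosen with earlier results of these data known. The text names the 5 members, in each list the 2 highest and 2 lowest genes and any past 2-fold, and the 3 genes with a symbol nearest to each member. Some genes that this rule names are left out here. Srf, Chd4, Klf9, Dusp5 and LOC100362453 were named or given levels after their values were seen. The deposited p-values compare 2 single libraries and are not printed. Promoter sequences are from RefSeq (GRCr8), a different build from that of the counts.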

Additional observations from a re-analysis of the deposited data

How the results depend on the processing

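Of 28 alternative log2 folds of the 5 genes, all stayed within the gene's counting interval and none changed sign. Those under a minimum of 0 or 100 reads equal the main value by construction, because the minimum does not enter a fold. Only the scalings, the prior of 5 counts and the repeated rows could move a fold. The count of members at least 2-fold higher with IgE was 2, and it was 1 with a minimum of 100 reads, which leaves out Egr3 and Egr2 by construction, and 3 by a 1.5-fold rule, which Egr2 passes. The same counts over all genes were 161 higher and 157 lower. They became 104 and 99 with a prior of 5 counts, 855 and 875 with no minimum, 21 and 15 when 100 reads were asked for, and 443 and 427 by a 1.5-fold rule. With no minimum, 1 gene of the Sp and Klf list (Klf9) was at least 2-fold lower in place of 0. No other list count or median moved outside its limits under the other scalings, priors and minimums. The lists were not counted by a 1.5-fold rule or with repeated rows. No paired analysis was possible because there was a single library per group, and for the same reason no library could be left out. Depth limits Egr2 and Egr3, and variation between cultures was not measured.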
